A study of Mus musculus with 36 samples.

Results

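The transcripts described here are 9 genes of transforming growth factor beta (TGF-beta) signalling: the ligands Tgfb1, Tgfb2 and Tgfb3, the receptors Tgfbr1 and Tgfbr2, the signal-transducing protein Smad3, the feedback inhibitors Smad7 and Skil, and the induced matrix protein Tgfbi. They were chosen by gene symbol, as the rows of the gene count table whose mouse Ensembl identifiers carry these names. All 9 were found among 55421 genes, and all 9 were among the 19478 genes that passed the filter on low counts. RNA came from right hippocampal slices of 18 mice that were 16 months old. Wild-type (WT) mice were C57BL/6, and T41B mice were of the Thy1-hAPPLond/Swe Line 41 strain, an amyloid model in which a Thy1 cassette drives human APP with the London and Swedish mutations. BD10-2, a small molecule that partly activates TrkB and TrkC (receptors of the neurotrophins), or vehicle (VEH) was gavaged for 3 months from the age of 13 months. Before freezing, a slice received either theta-burst stimulation, in 3 rounds of 10 bursts with 4 stimuli at 100 Hz and 200 ms between bursts, or a sham procedure of equal length. The 8 groups held 4 mice each for WT and T41B mice on vehicle, 3 mice each for WT mice on BD10-2 and 5 mice each for T41B mice on BD10-2. All mice of every group had been gavaged and all tissue had been sliced, so a sham slice is not intact hippocampus.

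TGF-beta ligands are secreted in a latent form, bound to a propeptide and to latency proteins, and must be released before they can bind. The active dimer is bound by the type II receptor, which recruits and phosphorylates the type I receptor, and the receptor complex then phosphorylates Smad2 and Smad3, which enter the nucleus with Smad4. Smad7 and the Ski family are induced by the pathway and hold it back. In the adult brain, microglia depend on TGF-beta signalling for much of their resting transcript profile.

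The 36 libraries held 11597555 to 28125842 expected counts each (median 18082415). Levels are in CPM, the count scaled to the effective size of the library. Over the 32 samples that remained after libraries with equal labels were added together, member counts ran from 29 for Tgfbi to 5944 for Skil. Neuron markers summed to 4848 to 7665 CPM in every sample, and none of the 7 neuron markers was at 0 in any sample. Thy1, whose cassette drives the transgene, read 255 to 399.8 CPM in the 16 WT libraries and 879.6 to 2412 CPM in the 20 T41B libraries, so no library crossed its genotype label. The lowest T41B value came from 1 of 2 libraries labelled as the stimulated slice of Mouse1592, whose other library read 1909 CPM and whose sham library read 2233 CPM. The same library had 21.3 CPM of Tgfb1 against 34.7 CPM in its partner, 13.7 against 28.6 CPM of Tgfbr2 and 2.88 against 8.99 CPM of Tgfbi. Whether that library is a mixed or mislabelled sample was not tested, and it is part of the summed stimulated values of Mouse1592 below. Without it, all 5 member calls for stimulation in T41B mice on BD10-2 remained, and so did all 3 calls for genotype among stimulated BD10-2 slices. Choroid plexus markers exceeded 100 CPM in 6 samples, namely both slices of Mouse1551 and Mouse1553 (T41B, vehicle) and the stimulated slices of Mouse1509 and Mouse1513 (WT, vehicle), with a highest sum of 1224 CPM.

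**Figure D1:**
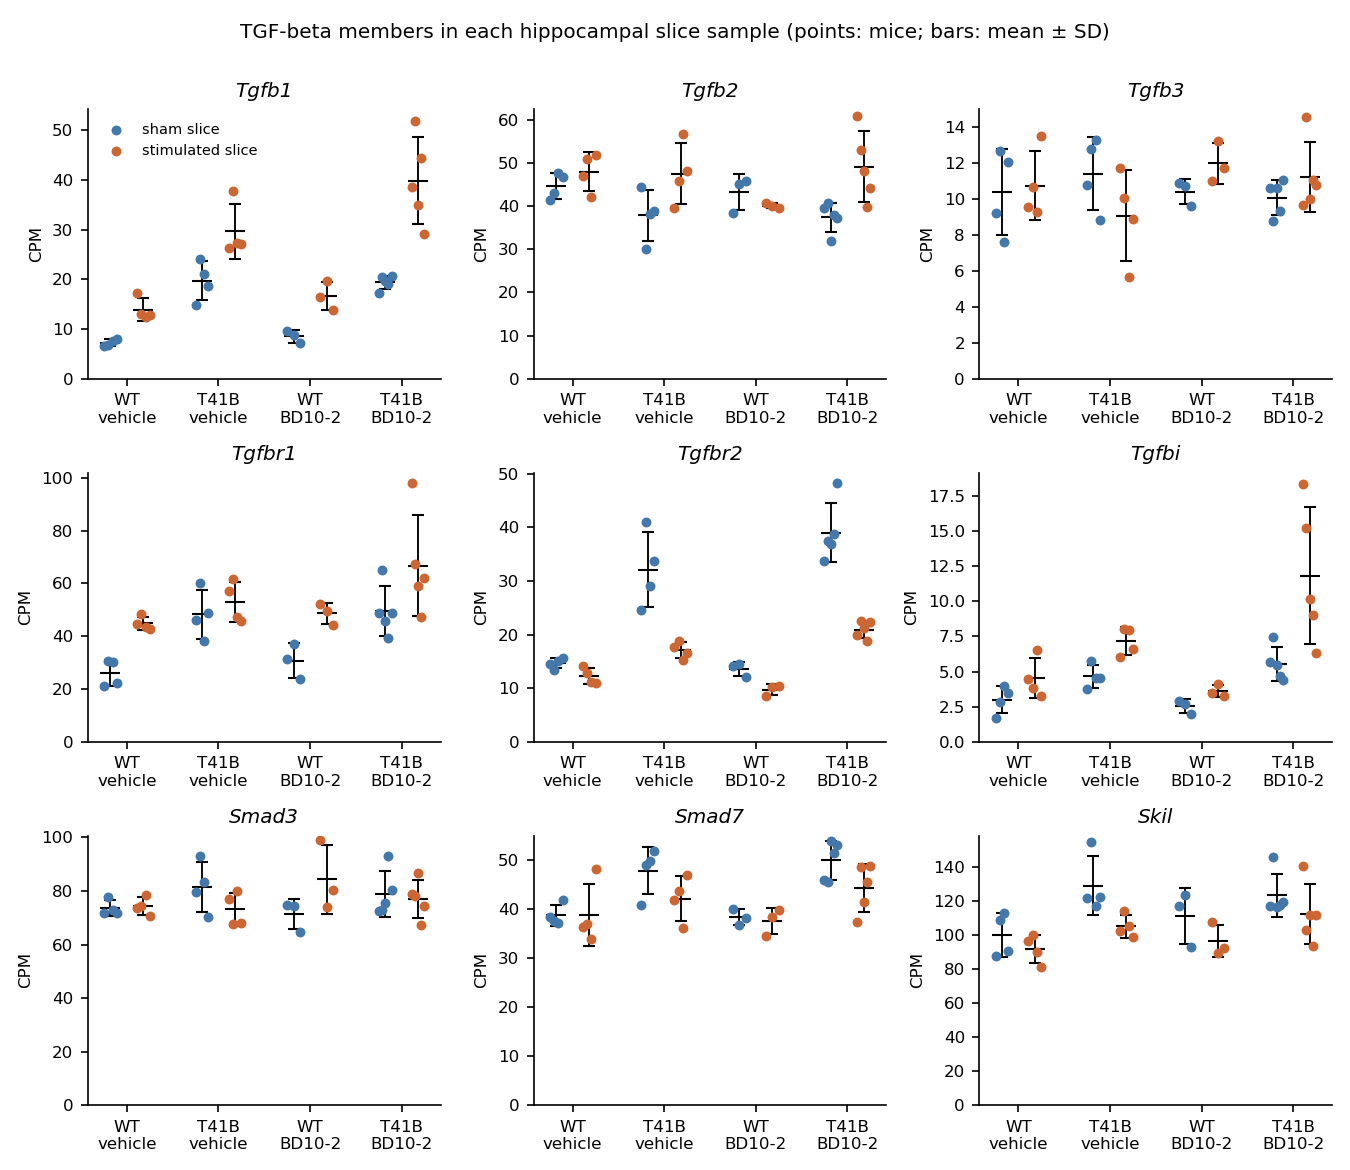
Level of each member in every sample, in CPM on linear axes from 0, by genotype and treatment along the x axis and with sham and stimulated slices side by side; points are mice, and bars are the mean and SD. Tgfb1 was higher in stimulated than in sham slices of every pair of groups, Tgfbr2 was highest in the sham T41B groups (24.6 to 48.2 CPM), and Smad3 stayed between 64.8 and 98.9 CPM in every sample.

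Per kilobase of exon, the top of the order was the same in all groups, while lower places changed between groups. Smad3 had the highest mean level in each of the 8 groups, from 12.9 to 15.2 CPM per kb, and Skil was second in each, from 9.48 to 13.3 CPM per kb. In sham slices of WT mice on vehicle the levels then ran Smad7 (8.56), Tgfb2 (7.72), Tgfbr1 (3.99), Tgfb3 (3.07), Tgfbr2 (1.795), Tgfb1 (1.44) and Tgfbi (0.793 CPM per kb). In that group the ranges of Skil and Smad7, of Smad7 and Tgfb2, and of Tgfbr1 and Tgfb3 overlapped, while the other 5 of 8 neighbouring pairs did not. In stimulated slices of T41B mice on BD10-2, Tgfb1 had moved up to 7.90 CPM per kb, next to Tgfb2 at 8.49 CPM per kb, and Tgfbr2 was last at 2.55 CPM per kb. Only 1 of 8 neighbouring pairs in that group, Tgfb1 and Tgfb3, had ranges that did not overlap.

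Tgfb1 encodes the ligand made mainly by microglia, other myeloid cells and vessel cells in brain, Tgfb2 the ligand made largely by neurons and astrocytes, and Tgfbr2 the type II receptor that binds the ligand first. Tgfb1 (ENSMUSG00000002603) lies on chromosome 7 at 25687002 to 25705077, plus strand. Tgfb2 (ENSMUSG00000039239) lies on chromosome 1 at 186622792 to 186705989, minus strand. Tgfbr2 (ENSMUSG00000032440) lies on chromosome 9 at 116084293 to 116175360, minus strand, all in GRCm38. Their promoters are shown because these are the ligand called in all 4 stimulation comparisons, the ligand with the highest level and the receptor called lower in 3 of them. Each is the 250 bases before the RefSeq start site in GRCm38.p6, read 5′ to 3′ on the gene's strand, at chr7:25686752-25687001 (plus) for Tgfb1, chr1:186705990-186706239 (minus) for Tgfb2 and chr9:116175364-116175613 (minus) for Tgfbr2. Capitals mark GTCT or its complement AGAC, the core of the element that Smad3 and Smad4 bind.
Tgfb1: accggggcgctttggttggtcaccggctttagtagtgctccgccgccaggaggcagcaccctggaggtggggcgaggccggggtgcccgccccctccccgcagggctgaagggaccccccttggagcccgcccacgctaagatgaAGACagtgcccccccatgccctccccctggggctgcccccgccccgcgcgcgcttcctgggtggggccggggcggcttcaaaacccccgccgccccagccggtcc
Tgfb2: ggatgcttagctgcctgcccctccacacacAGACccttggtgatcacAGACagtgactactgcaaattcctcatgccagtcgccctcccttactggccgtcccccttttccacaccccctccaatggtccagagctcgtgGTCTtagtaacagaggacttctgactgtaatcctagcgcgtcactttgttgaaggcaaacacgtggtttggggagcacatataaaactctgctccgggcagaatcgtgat
Tgfbr2: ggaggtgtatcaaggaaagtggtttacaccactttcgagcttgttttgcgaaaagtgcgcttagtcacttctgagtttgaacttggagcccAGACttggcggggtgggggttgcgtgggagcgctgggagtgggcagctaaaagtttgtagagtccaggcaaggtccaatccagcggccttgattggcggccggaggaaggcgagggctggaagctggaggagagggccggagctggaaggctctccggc
The Tgfb1 promoter held 1 such core, the Tgfb2 promoter 3 and the Tgfbr2 promoter 1, and 82.9% of 32851 RefSeq promoter windows of this length held at least 1. On either strand, the longer form CAGACA, which contains the core, was found once in the Tgfb2 promoter and in 17.1% of all windows. GGGCGG, the GC box, occurred 5 times in the Tgfb1 promoter, not in the other 2, and in 32.7% of all windows. An NF-kappaB motif was matched once in the Tgfb1 promoter, not in the other 2, and in 7.25% of all windows. TATAAA was matched in the Tgfb2 promoter alone of these 3, and in 12.4% of all windows. Bases G and C made up 75.2% of the Tgfb1 window, 58.4% of the Tgfbr2 window and 53.6% of the Tgfb2 window. A match of these letters is a description and not a bound site. Of the 9 members, 6 had an entry in the promoter table.

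Tgfb1 rose with stimulation at both genotypes and on both treatments. Tgfbr1 was called higher in 3 of 4 comparisons (not in T41B mice on vehicle) and Tgfbr2 lower in 3 of 4 (not in WT mice on vehicle), while Tgfb3, Smad3, Smad7 and Skil passed in none of the 4 comparisons. A call means an adjusted p below 0.05 in edgeR, with the adjustment made over all 19478 genes. In WT mice on vehicle 2 of 9 members were called higher and 0 lower, against 8.21% and 4.10% of all genes. In T41B mice on vehicle 2 were called higher and 1 lower, against 11.7% and 9.83% of all genes. In WT mice on BD10-2 the counts were 2 higher and 1 lower, against 6.29% and 2.58%. In T41B mice on BD10-2 they were 4 higher and 1 lower, against 13.3% and 9.52%. The median log2 fold change of the members ran from -0.16 to 0.20 over the 4 comparisons, and that of all genes from -0.05 to -0.01.

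In vehicle-treated WT mice, Tgfb1 read 6.64, 6.85, 7.61 and 7.97 CPM in sham slices and 17.3, 13.1, 12.4 and 12.7 CPM in stimulated slices of Mouse1509, Mouse1513, Mouse1522 and Mouse1524. Every stimulated slice lay above every sham slice, and Tgfb1 rose by 0.93 ± 0.17 in log2 (edgeR adjusted p = 0.000256). Errors after log2 fold changes are SE throughout. In T41B mice on vehicle, Tgfb1 read 14.8, 24.04, 21.2 and 18.7 CPM in sham slices and 26.3, 37.8, 27.3 and 27.1 CPM in stimulated slices of Mouse1510, Mouse1551, Mouse1553 and Mouse1579. The groups again did not overlap, with a log2 fold change of 0.59 ± 0.16 (edgeR adjusted p = 0.00732). With BD10-2, WT mice read 9.62, 8.77 and 7.09 CPM in sham slices of Mouse1565, Mouse1571 and Mouse1590. Their stimulated slices read 16.4, 19.7 and 13.9 CPM, in Mouse1565, Mouse1571 and Mouse1586. T41B mice on BD10-2 read 17.3, 20.4, 19.6, 19.1 and 20.7 CPM in sham slices of Mouse1557, Mouse1563, Mouse1564, Mouse1570 and Mouse1592. Stimulated slices of Mouse1563, Mouse1564, Mouse1570, Mouse1572 and Mouse1592 read 38.5, 51.95, 34.9, 44.5 and 29.2 CPM. The BD10-2 groups are thus only partly paired, and values of other members are listed in the same orders below. Both pairs of groups were apart, with log2 fold changes of 0.95 ± 0.19 in WT mice (edgeR adjusted p = 0.000948) and 1.03 ± 0.14 in T41B mice (edgeR adjusted p = 1.52e-06). Tgfb1 was higher in the stimulated slice of 14 of 14 mice with both slices, by 0.36 to 1.36 in log2(CPM + 1). All 4 calls were kept under every alternative that was run.

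The other ligands moved less. Tgfb2 read 30.02 to 44.4 CPM in sham and 39.5 to 56.8 CPM in stimulated slices of T41B mice on vehicle, and 32.01 to 40.6 against 39.8 to 60.9 CPM on BD10-2. Its log2 fold changes were 0.33 ± 0.12 on vehicle (edgeR adjusted p = 0.0466) and 0.39 ± 0.11 on BD10-2 (edgeR adjusted p = 0.00723). In WT mice the values were 0.10 ± 0.12 and -0.11 ± 0.14, and neither passed. The vehicle call was lost under 8 of 12 alternatives, among them without Mouse1551 (0.25), Mouse1553 (0.24) or Mouse1579 (0.34). Without the samples high in choroid plexus markers, which left only Mouse1510 and Mouse1579, the fold change was 0.07 (edgeR adjusted p = 0.86). Without Mouse1564 the BD10-2 call was lost as well (0.31). Tgfb3, the third ligand, ran from 5.67 to 14.6 CPM over all samples with log2 fold changes from -0.33 to 0.20, none called. An antisense transcript, Gm29491, overlaps an exon of Tgfb2, and Ttll5, Gm37804 and Gm48008 overlap exons of Tgfb3 from the opposite strand, so counts of these ligands are uncertain where the strand setting of the counting is not known.

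The type I receptor Tgfbr1, the kinase that phosphorylates Smad2 and Smad3, read 21.2, 30.5, 30.2 and 22.2 CPM in sham slices of WT mice on vehicle and 44.7, 48.5, 43.6 and 42.8 CPM in their stimulated slices. These groups did not overlap, and the log2 fold change was 0.79 ± 0.18 (edgeR adjusted p = 0.0035). In WT mice on BD10-2 it read 31.3, 37.2 and 23.9 CPM in sham and 52.1, 49.7 and 44.1 CPM in stimulated slices, which were also apart, at 0.66 ± 0.21 (edgeR adjusted p = 0.0421). In T41B mice the ranges overlapped, at 38.2 to 60.2 against 45.7 to 61.5 CPM on vehicle and 39.3 to 65.3 against 47.2 to 98.2 CPM on BD10-2. The log2 fold change there was 0.13 ± 0.18 on vehicle, not called, and 0.43 ± 0.16 on BD10-2 (edgeR adjusted p = 0.0498). The last of these was lost under 9 of 14 alternatives, among them without any 1 of Mouse1557, Mouse1563, Mouse1564, Mouse1570 and Mouse1592 (0.37 to 0.45), and that in WT mice on BD10-2 without any 1 of Mouse1565, Mouse1571 and Mouse1590 (0.51 to 0.79).

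Tgfbr2, the ligand-binding receptor, fell in 3 of 4 comparisons. In sham slices of T41B mice on vehicle it read 24.6, 40.9, 29.02 and 33.7 CPM, and in stimulated slices of the same 4 mice 17.7, 18.8, 15.3 and 16.5 CPM. The groups did not overlap, and the log2 fold change was -0.91 ± 0.12 (edgeR adjusted p = 2.86e-06). In T41B mice on BD10-2 it read 33.7, 37.5, 36.8, 38.7 and 48.2 CPM in sham slices and 19.8, 22.6, 21.1, 18.7 and 22.3 CPM in stimulated slices. Here too every sham slice lay above every stimulated slice, at -0.90 ± 0.11 (edgeR adjusted p = 2.66e-07). In WT mice on BD10-2, sham slices read 14.1, 14.5 and 12.1 CPM and stimulated slices 8.47, 10.2 and 10.3 CPM, at -0.49 ± 0.15 (edgeR adjusted p = 0.0329). That call was lost without any 1 of Mouse1565, Mouse1571 and Mouse1586 (-0.39 to -0.52) and with batch as a term (-0.43). In WT mice on vehicle the ranges were 13.5 to 15.7 and 10.9 to 14.2 CPM and overlapped, at -0.26 ± 0.13 (95% interval -0.52 to 0.00; edgeR adjusted p = 0.2). Tgfbr2 was lower in the stimulated slice of 14 of 14 mice, with differences from -1.08 to -0.03 in log2(CPM + 1). The smallest was in Mouse1509 (WT, vehicle), which read 14.5 CPM in sham and 14.2 CPM in the stimulated slice.

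**Figure D2:**
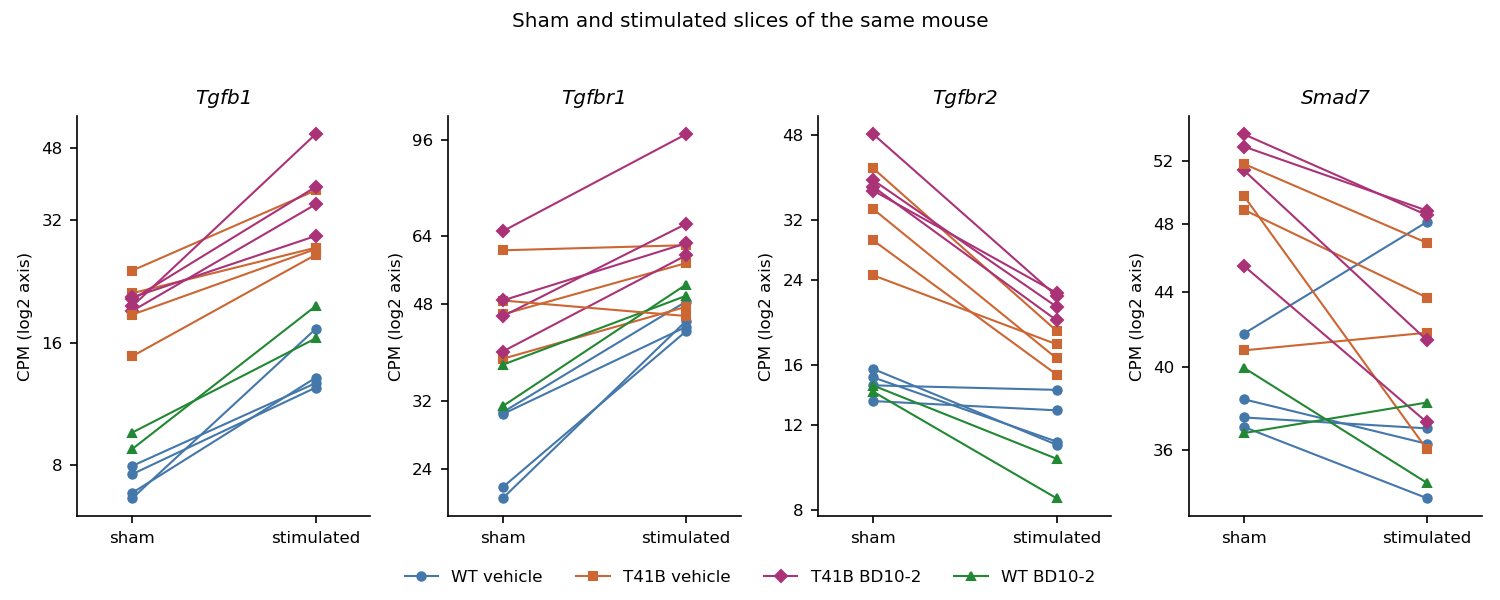
Levels of Tgfb1, Tgfbr1, Tgfbr2 and Smad7 in the sham and the stimulated slice of each of 14 mice, in CPM on log2 axes whose ranges differ between panels; each line is 1 mouse, with colour and symbol for genotype and treatment. Every Tgfb1 line rises and every Tgfbr2 line falls, 13 of 14 Tgfbr1 lines rise, and 11 of 14 Smad7 lines fall.

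These changes shifted the make-up of the ligands and of the receptor pair. Per kilobase of exon, Tgfb1 made up 11.8% ± 0.725 (SD, n = 4) of the 3 ligands in sham and 19.4% ± 3.26 (n = 4) in stimulated slices of WT mice on vehicle. The shares were 28.3% ± 5.49 and 34.9% ± 3.98 (n = 4 each) in T41B mice on vehicle. On BD10-2 they were 13.8% ± 2.35 and 23.9% ± 2.68 (n = 3 each) in WT mice, and 28.998% ± 2.01 and 39.8% ± 4.93 (n = 5 each) in T41B mice. The share was higher in the stimulated slice of 14 of 14 mice. Tgfb2 remained the ligand with the highest mean level in each group. The ratio of Tgfbr2 to Tgfbr1, both in CPM per kb, was lower in the stimulated slice of 14 of 14 mice, with a median of 0.437 times the sham ratio. It was 0.465 ± 0.106 in sham and 0.218 ± 0.0240 in stimulated slices of WT mice on vehicle, and 0.532 ± 0.0759 and 0.259 ± 0.0203 in T41B mice on vehicle.

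**Figure D3:**
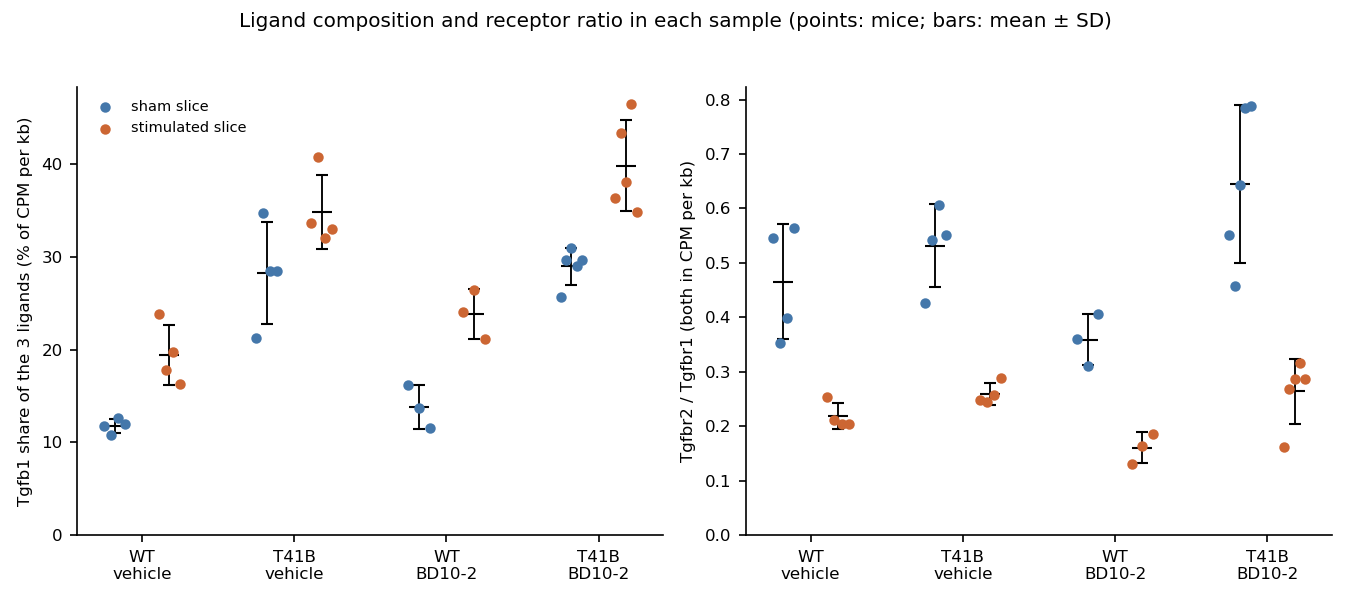
Share of Tgfb1 among the 3 ligands (left, % of CPM per kb) and ratio of Tgfbr2 to Tgfbr1 in CPM per kb (right), on linear axes from 0, for each mouse in each group, with the mean and SD. Stimulated slices had a higher Tgfb1 share and a lower receptor ratio than sham slices in every combination of genotype and treatment, with median within-mouse ratios of 1.38 and 0.437.

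Of the genes that act below the receptors, Tgfbi alone was called with stimulation, in 1 of 4 combinations. Tgfbi, a secreted matrix protein named for its induction by TGF-beta, read 5.70, 7.47, 5.43, 4.70 and 4.40 CPM in sham and 18.3, 15.2, 10.2, 9.04 and 6.32 CPM in stimulated slices of T41B mice on BD10-2. The ranges overlapped through the stimulated slice of Mouse1592, and the log2 fold change was 1.08 ± 0.23 (edgeR adjusted p = 0.000751). On vehicle, T41B mice had Tgfbi at 3.75 to 5.78 CPM in sham and 6.04 to 8.005 CPM in stimulated slices, which did not overlap, at 0.62 ± 0.26 (edgeR adjusted p = 0.0944). With a replicate block for the mouse, Tgfbi passed there (0.63, edgeR adjusted p = 0.0169) and in WT mice on vehicle (0.61, edgeR adjusted p = 0.0432, against 0.159 without the block), and with batch as a term it passed in both as well. Tgfbi was higher in the stimulated slice of 13 of 14 mice.

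Smad3 read 64.8 to 98.9 CPM over all samples, with log2 fold changes after stimulation from -0.16 to 0.24. Smad7, which blocks the type I receptor, read 33.9 to 53.8 CPM with log2 fold changes from -0.18 to 0.00. Skil, also called SnoN, which represses transcription with Smad complexes, read 81.1 to 155 CPM with log2 fold changes from -0.29 to -0.12. None of these 12 tests passed without the block. Their 95% intervals together reached from -0.53 to 0.47, so larger changes than these lay outside the interval of each test. With the block, Skil passed in T41B mice on vehicle (-0.29, edgeR adjusted p = 0.00761), and it was lower in the stimulated slice of 13 of 14 mice.

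The wider pathway was read from 7 lists with 72 genes, of which 71 were tested and Itgb6 was not. Of these, 11 were called higher and 5 lower in all 4 stimulation comparisons, against 4.46% and 1.02% of all genes. Of the 5 lower, 4 were genes that microglia need TGF-beta to express. The lists were chosen with earlier results of these data known, so these counts describe the lists and do not test the pathway. For the genes that store and release latent TGF-beta, 5, 8, 5 and 7 of 13 tested were called higher in WT vehicle, T41B vehicle, WT BD10-2 and T41B BD10-2 mice, and 1, 0, 0 and 0 lower. Of all genes, 8.21%, 11.7%, 6.29% and 13.3% were called higher and 4.10%, 9.83%, 2.58% and 9.52% lower. The same shares apply to the list and marker counts for stimulation below. Lrrc32, which tethers latent TGF-beta to the cell surface, Itgav, a subunit of the integrins that release it, Furin, which cleaves the precursor, Thbs1 and Emilin1 were higher in all 4. Thbs1, a matrix protein that can activate latent TGF-beta, rose from 3.39 to 5.91 CPM in sham to 16.0 to 46.7 CPM in stimulated slices of WT mice on vehicle, a log2 fold change of 2.92 ± 0.47 (edgeR adjusted p = 5.81e-05). In T41B mice on BD10-2 it went from 5.56 to 11.6 CPM to 58.5 to 433 CPM, a log2 fold change of 4.70 ± 0.42 (edgeR adjusted p = 7.57e-10).

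Among 12 other target genes, Cdkn1a, a cell cycle inhibitor, was higher in all 4 comparisons. In all, 3, 2, 3 and 2 of the 12 were called higher and 0, 0, 1 and 0 lower, and Ccn2, Fn1, Col1a1, Id2 and Id3 were called in none. Smad1 and Smad5, which carry BMP signals, were higher in all 4, and Smad4 in 3 of 4. Of 9 negative regulators, 2, 3, 0 and 4 were called higher, among them Tgif1 and Pmepa1 in 3 of 4. Gdf15 and the activin subunit gene Inhba were higher and the activin receptor gene Acvr2a lower in all 4. Gdf15, a distant member of the ligand family, had the largest rise of the 72 genes in WT mice on vehicle, from 0.0593 to 0.692 CPM in sham to 11.3 to 15.2 CPM in stimulated slices (log2 5.06 ± 0.42, edgeR adjusted p = 1.20e-09). Of 5 co-receptors and decoy receptors, only Eng was called, higher in both T41B comparisons.

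Of 6 genes that microglia need TGF-beta to express, 5, 4, 4 and 5 were called lower after stimulation and none higher. Tmem119, a surface protein of resident microglia, read 9.68 to 17.9 CPM in sham and 1.27 to 3.63 CPM in stimulated slices of WT mice on vehicle (log2 -2.56 ± 0.30, edgeR adjusted p = 4.90e-07). The T41B mice on vehicle read 18.2 to 31.1 and 1.65 to 2.93 CPM (-3.50 ± 0.31, edgeR adjusted p = 1.57e-09). P2ry12, the ADP receptor of resting microglia, Gpr34 and Olfml3 were also lower in all 4. P2ry12 was lower in the stimulated slice of 14 of 14 mice, by 1.33 to 2.32 in log2(CPM + 1).

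**Figure D4:**
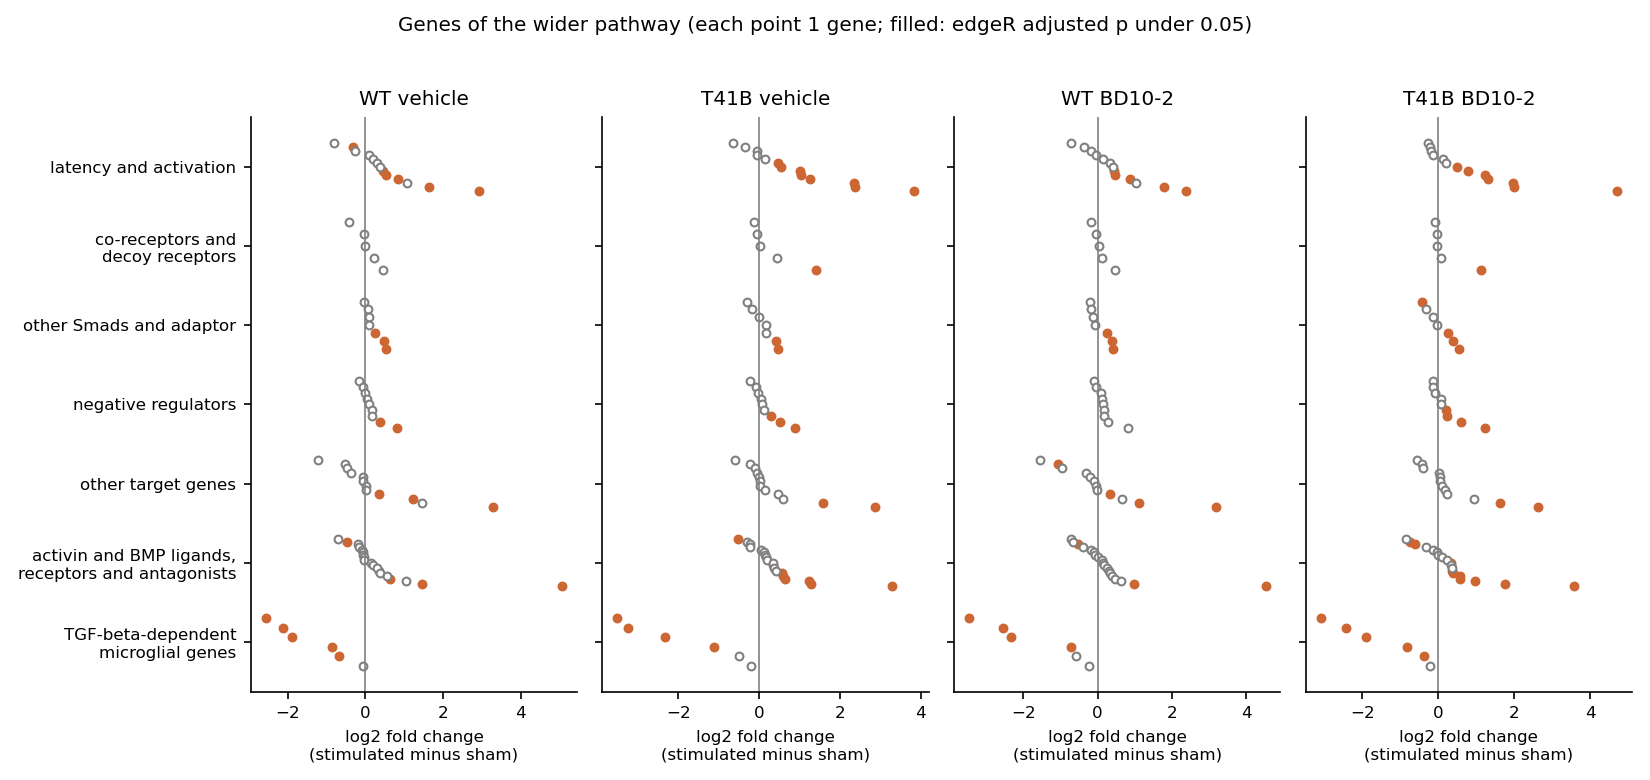
Log2 fold changes (stimulated minus sham) of the 71 tested genes of 7 lists, 1 panel for each combination of genotype and treatment; each point is 1 gene, and filled points were called. The latency and activation list reaches from below 0 to 4.70 (Thbs1), and called points of the TGF-beta-dependent microglial list all lie below 0, down to -3.50 (Tmem119).

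Markers of several cell types moved with these comparisons. In bulk tissue, fewer cells of a type and less RNA per cell cannot be told apart. Of 8 general microglia markers, 5, 6, 5 and 4 were called lower after stimulation in the 4 comparisons, and 1 (Fcer1g, in T41B mice on BD10-2) was called higher. Their summed level was 244 to 318 CPM in sham and 128 to 213 CPM in stimulated WT slices, over both treatments, and 562 to 1093 and 361 to 769 CPM in T41B slices. None of the 8 was at 0 in any sample. This sum was lower after stimulation, as Tgfbr2 was, while Tgfb1 was higher, and the part of microglia in these changes was not tested. Of 7 astrocyte markers, 3, 4, 0 and 3 were called higher after stimulation and none lower. Their sum was 6957 to 9622 CPM in sham and 9418 to 12734 CPM in stimulated T41B slices, where Tgfb2 was called, and 6845 to 8273 and 7614 to 9645 CPM in WT slices. Of 7 neuron markers, 0 were called higher and 1, 0, 2 and 2 lower, and the part of either cell type in the Tgfb2 values was not tested. Oligodendrocyte lineage markers were called lower in 0, 2, 0 and 1 of 7, meningeal fibroblast markers in 0, 2, 2 and 2 of 6 tested, and pericyte and smooth muscle markers in 1, 0, 0 and 1 of 6, with none higher. Of 7 endothelial markers, 1, 2, 1 and 2 were called higher and 2, 1, 1 and 2 lower. Endothelial markers summed to 112 to 138 CPM in WT sham and 29.99 to 243 CPM in WT stimulated slices, and to 47.8 to 182 and 112 to 254 CPM in T41B slices. Markers of monocytes, neutrophils and border macrophages summed to at most 5.34 CPM in any sample. Of these 9 markers, 7 were at 0 in at least 1 sample, among them Ccr2, Ly6c2, S100a8 and S100a9. All 9 choroid plexus markers were called higher after stimulation in WT mice on vehicle. Without the samples high in these markers, Tgfb1 and Tgfbr1 were still called there, with only Mouse1522 and Mouse1524 left in the stimulated group.

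**Figure D5:**
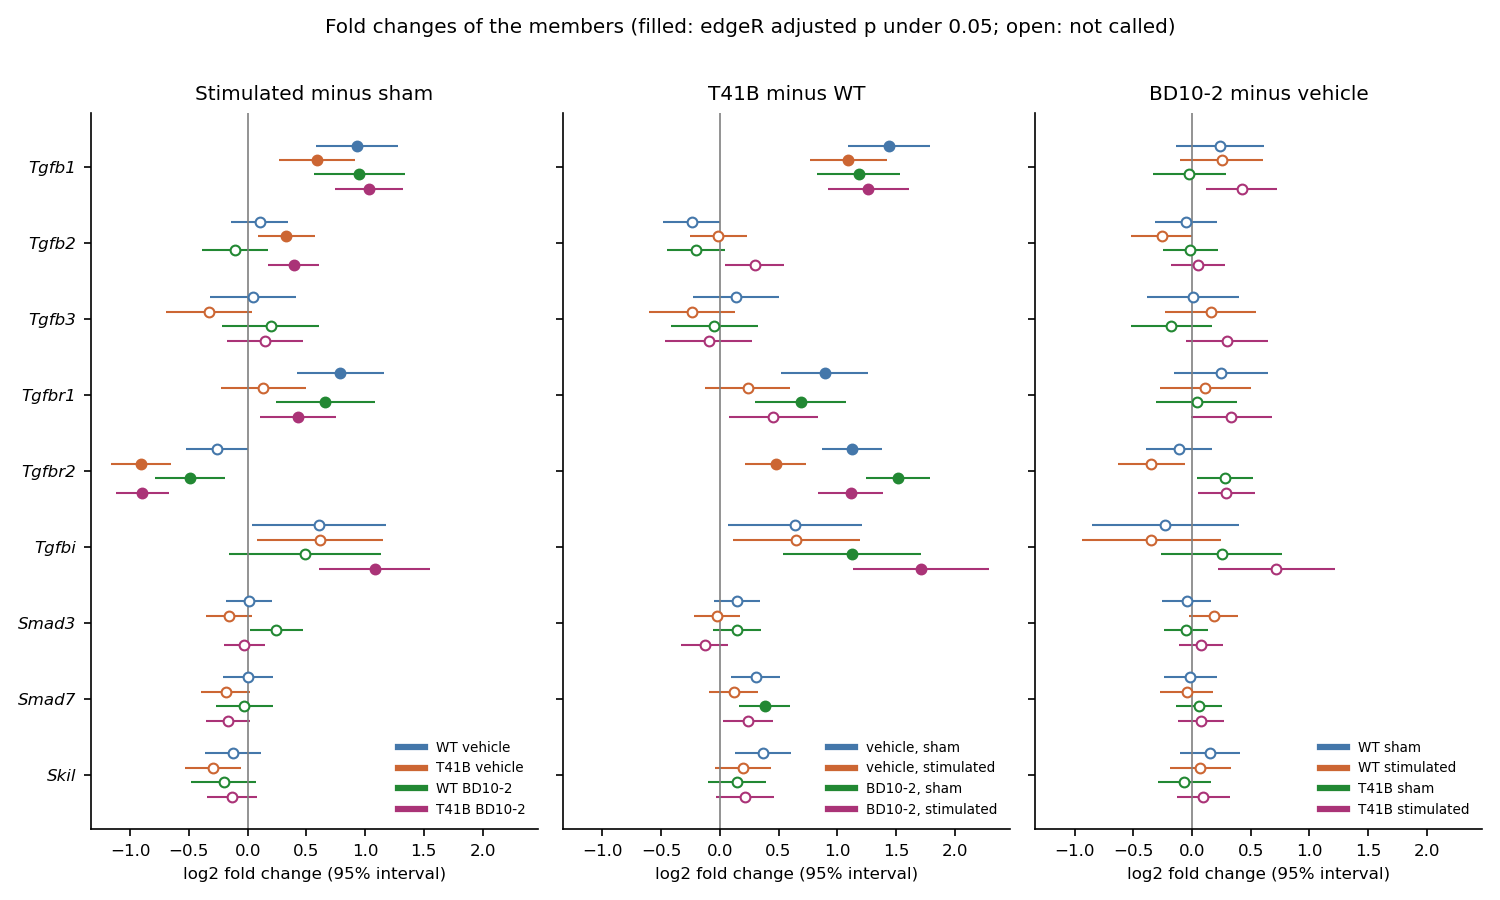
Log2 fold changes of the 9 members with 95% intervals for stimulation (left), genotype (middle) and treatment (right), 4 comparisons in each panel by colour; filled points had an edgeR adjusted p under 0.05. Tgfb1 is right of 0 in all 8 stimulation and genotype comparisons, Tgfbr2 is left of 0 in the left panel and right of 0 in the middle panel, and no point is filled in the right panel.

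The genotype comparison asks how the amyloid model differs from WT mice. Of the members that differed, all were higher in T41B mice, with Tgfb1 and Tgfbr2 called in each of the 4 comparisons. Among vehicle-treated mice, 3 of 9 members were called higher in sham slices, against 5.0% of all genes, and 2 of 9 in stimulated slices, against 4.74%. On BD10-2 the counts were 5 of 9 in sham slices, against 4.31% of all genes, and 3 of 9 in stimulated slices, against 8.19%. The median log2 fold change of the members ran from 0.19 to 0.38, and that of all genes from -0.03 to 0.01. The stimulation and genotype comparisons use the same samples and are not independent of one another.

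From the values above, sham slices on vehicle read 6.64 to 7.97 CPM of Tgfb1 in WT mice and 14.8 to 24.04 CPM in T41B mice. The groups did not overlap, and the log2 fold change was 1.44 ± 0.17 (edgeR adjusted p = 1.24e-06). It was 1.09 ± 0.16 in stimulated slices on vehicle (edgeR adjusted p = 4.29e-05), 1.18 ± 0.17 in sham slices on BD10-2 (edgeR adjusted p = 4.27e-05) and 1.26 ± 0.17 in stimulated slices on BD10-2 (edgeR adjusted p = 6.63e-06). Every T41B sample lay above every WT sample in each of these 4. Within the batches that hold both genotypes, the difference in log2(CPM + 1) between T41B and WT was 0.88 to 1.42 in 7 of 7 comparisons of 1 or 2 mice a side. These came from batches A, C, D and I. In part they used sham and stimulated slices of the same mice, so they are not independent.

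Tgfbr2 in sham slices read 13.5 to 15.7 CPM in WT mice and 24.6 to 40.9 CPM in T41B mice on vehicle, and 12.1 to 14.5 against 33.7 to 48.2 CPM on BD10-2. Neither pair overlapped, at 1.12 ± 0.13 (edgeR adjusted p = 6.06e-07) and 1.52 ± 0.13 (edgeR adjusted p = 2.44e-08). In stimulated slices the log2 fold change was 0.47 ± 0.13 on vehicle (edgeR adjusted p = 0.021) and 1.113 ± 0.14 on BD10-2 (edgeR adjusted p = 1.87e-06). The vehicle call was lost without any 1 of Mouse1522, Mouse1524 and Mouse1551 (0.43 to 0.44) and with batch as a term (0.45). Within batches Tgfbr2 was higher in T41B mice in the same 7 of 7 comparisons, which share mice in part, by 0.55 to 1.91.

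Tgfbr1 was higher in sham slices of T41B mice, at 38.2 to 60.2 against 21.2 to 30.5 CPM on vehicle, which did not overlap (log2 0.89 ± 0.18, edgeR adjusted p = 0.00205), and at 39.3 to 65.3 against 23.9 to 37.2 CPM on BD10-2 (0.69 ± 0.19, edgeR adjusted p = 0.0262). In stimulated slices it was 0.24 ± 0.18 and 0.46 ± 0.18, neither called. The BD10-2 sham call was lost without Mouse1565 (0.70) or Mouse1590 (0.54) and with batch as a term (0.51).

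Tgfbi was called higher in T41B mice on BD10-2, at 1.12 ± 0.29 in sham slices (edgeR adjusted p = 0.0157) and 1.72 ± 0.28 in stimulated slices (edgeR adjusted p = 8.91e-05), where it read 6.32 to 18.3 CPM against 3.28 to 4.09 CPM in WT mice. On vehicle it was 0.64 ± 0.28 and 0.65 ± 0.26, neither called. In log2(CPM + 1), the difference within batch A was near 0 (-0.06 in sham and -0.10 in stimulated slices). Within batch C, also on vehicle, it was 0.32 in sham and 0.84 in stimulated slices. On BD10-2 it was 0.87 in sham slices of batch D, and 0.58 and 1.16 in sham and stimulated slices of batch I. The sham call on BD10-2 was lost without any 1 of the 3 WT mice (0.98 to 1.25). Smad7 was called in 1 of 4 comparisons, sham slices on BD10-2, at 45.5 to 53.8 CPM in T41B and 36.8 to 39.99 CPM in WT mice (0.38 ± 0.11, edgeR adjusted p = 0.0296), which was lost under 7 of 14 alternatives, among them without any 1 of Mouse1564, Mouse1565, Mouse1570, Mouse1571, Mouse1590 and Mouse1592 (0.35 to 0.41). Tgfb2, Tgfb3, Smad3 and Skil were called in none of the 4, with log2 fold changes from -0.24 to 0.37.

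Markers of microglia, astrocytes and neurons differed by genotype as well. Of the 8 general markers, 8, 7, 8 and 8 were called higher in T41B mice (vehicle sham, vehicle stimulated, BD10-2 sham and BD10-2 stimulated), with median log2 fold changes of 1.43 to 1.78. Astrocyte markers were called higher in 2, 2, 2 and 5 of 7 and lower in none, and neuron markers lower in 1, 2, 2 and 0 of 7 and higher in none. Of all genes, 5.0%, 4.74%, 4.31% and 8.19% were called higher in these comparisons. Called lower were 242, 205, 223 and 460 of 19478 genes. On vehicle, 1 of 9 choroid plexus markers was called higher in sham slices (median log2 fold change 1.94), and 3 of 9 choroid plexus markers (median -2.52) and 1 of 7 endothelial markers were called lower in stimulated slices. Without the samples high in choroid plexus markers, Tgfb1 and Tgfbr2 were still called in both of these comparisons and Tgfbr1 in sham slices. Only Mouse1510 and Mouse1579 then remained of the T41B mice, with no mouse of batch G. Of the WT mice, only Mouse1522 and Mouse1524 remained in stimulated slices, with none of batch E. The part of microglia, astrocytes, neurons and endothelium in the higher Tgfb1, Tgfbr1 and Tgfbr2 was not tested. Of the 6 TGF-beta-dependent microglial genes, 4, 2, 3 and 5 were called higher, and Olfml3 and Fcrls in all 4. Olfml3 read 14.1 to 18.1 CPM in WT and 28.4 to 52.2 CPM in T41B sham slices on vehicle (log2 1.29 ± 0.18, edgeR adjusted p = 1.99e-05). Among the other targets, Id3, which encodes an inhibitor of differentiation factors, was higher in all 4 comparisons, and so was the negative regulator Tgif1. Thbs1 was called in stimulated slices, at 2.01 ± 0.41 on vehicle (edgeR adjusted p = 0.0019) and 3.01 ± 0.47 on BD10-2 (edgeR adjusted p = 4.37e-05), and Gdf15 in sham slices on vehicle (1.99 ± 0.49, edgeR adjusted p = 0.012). Lower in T41B mice were Fn1 in sham slices on vehicle (-1.05 ± 0.26, edgeR adjusted p = 0.0107), Zfyve9 in stimulated slices on vehicle (-0.24 ± 0.07, edgeR adjusted p = 0.0358) and Chrd in stimulated slices on BD10-2 (-0.48 ± 0.12, edgeR adjusted p = 0.00722).

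BD10-2 against vehicle gave no call among the members. By edgeR, 0 of 36 tests passed after adjustment, 5 of 36 had an unadjusted p under 0.05, and DESeq2 called none of the 36. Of all 19478 genes, edgeR called 0 (0%) in each of the 4 treatment comparisons, with 1.92%, 5.61%, 2.21% and 3.90% of genes at an unadjusted p under 0.05 in WT sham, WT stimulated, T41B sham and T41B stimulated slices, and DESeq2 called 0, 25, 0 and 0. Each batch held 1 treatment, so batch and treatment cannot be told apart. In stimulated T41B slices Tgfb1 read 26.3 to 37.8 CPM on vehicle and 29.2 to 51.95 CPM on BD10-2, which overlapped, a log2 fold change of 0.42 ± 0.15 (95% interval 0.12 to 0.73, edgeR unadjusted p = 0.00771, adjusted p = 1). Tgfbi read 6.04 to 8.005 and 6.32 to 18.3 CPM there, at 0.72 ± 0.24 (0.22 to 1.22, edgeR unadjusted p = 0.00631, adjusted p = 1). For Tgfbr2 the values were 0.28 ± 0.12 in T41B sham, 0.29 ± 0.12 in T41B stimulated and -0.35 ± 0.14 in WT stimulated slices, with unadjusted p of 0.0226, 0.0208 and 0.0192 by edgeR. Over all 36 tests the 95% intervals reached from -0.94 to 1.22.

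Whether the response to stimulation differed between genotypes or treatments was tested as an interaction. By edgeR, 0 of 36 member tests passed after adjustment, 5 of 36 had an unadjusted p under 0.05, and DESeq2 called none. Over all genes edgeR called 0 (0%) in each of the 4 interactions, with 8.64% and 4.34% of genes at an unadjusted p under 0.05 for genotype on vehicle and on BD10-2, and 1.73% and 2.7% for treatment in WT and in T41B mice, where DESeq2 called 1, 20, 0 and 1. These 5 were Tgfbr1 and Tgfbr2 on vehicle and Tgfb2 and Tgfbr2 on BD10-2 for genotype, and Tgfb1 in T41B mice for treatment. On vehicle, the stimulation response of Tgfbr2 was lower in T41B than in WT mice, with a difference of log2 fold changes of -0.65 ± 0.18 (95% interval -1.02 to -0.28, edgeR unadjusted p = 0.00106, adjusted p = 0.348), and -0.35 without the samples high in choroid plexus markers. That of Tgfbr1 was -0.66 ± 0.25 (-1.17 to -0.14, edgeR adjusted p = 0.507). So the call of Tgfbr1 in WT but not T41B mice on vehicle, and of Tgfbr2 in T41B but not WT mice, is not shown to be a difference between genotypes. For Tgfb1 the genotype interaction was -0.35 ± 0.23 on vehicle and 0.08 ± 0.23 on BD10-2, and the treatment interaction in T41B mice was 0.45 ± 0.21 (95% interval 0.02 to 0.88, edgeR unadjusted p = 0.043, adjusted p = 1). Tgfb2 on BD10-2 had a genotype interaction of 0.50 ± 0.17 (edgeR unadjusted p = 0.00741, adjusted p = 0.835).

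The genes whose level ran most like that of a member were taken as the 2 with the highest Pearson r of log2(CPM + 1) over the 32 samples, among 16192 genes. The samples share groups, batches and in part mice, so these values describe the pattern only, and r of the deviations from group means is given second. For Tgfb1 they were Arpc1b (0.979, 0.814) and Clic1 (0.968, 0.646). For Tgfbr1 they were Cd180 (0.924, 0.763) and Ptprc (0.907, 0.872), both genes of leukocyte surface proteins. For Tgfbr2 they were Man2b1 (0.955, 0.607) and Plxnb2 (0.950, 0.727), and for Tgfbi Nek6 (0.933, 0.824) and Mcl1 (0.927, 0.675). Tgfb2 had Snx10 (0.801, 0.727) and Larp4b (0.777, 0.665), and Tgfb3 had Dync1li2 (0.859, 0.830) and Shtn1 (0.828, 0.814). Smad3 had Tiam1 (0.812, 0.760) and Prox1 (0.792, 0.753), and Smad7 had Mpst (0.878, 0.770) and Srebf1 (0.874, 0.806). Skil had Net1 (0.850, 0.709) and Tmem167b (0.823, 0.882).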

How the data were processed

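RNA was measured in 36 ribosome-depleted, stranded libraries made from 200 ng of total RNA, per the labels' protocols. The authors deposited RSEM expected counts per gene, estimates that can hold fractions and carry no scaling. The submitters' processing notes name cutadapt 1.8.1, STAR 2.7.6a, RSEM 1.3.1, featureCounts 1.6, SAMtools 1.11 and the build GRCm38.p6, while the annotation release and the strand setting are not given in the sources used here. Symbols matched 55154 of 55421 identifiers. Locations and exon lengths came from GENCODE for GRCm38, promoters from RefSeq for GRCm38.p6, which lists 6 of the 9 members.

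Counts of libraries with equal labels (4 pairs, whose chi-square over their degrees of freedom was 7.44 to 28.9, beyond sampling noise) were added, giving 32 samples. Expected counts were rounded, filtered with edgeR's filterByExpr (minimum count 10), scaled by TMM and tested with edgeR 4.0.16's quasi-likelihood test in 1 fit over 8 groups, with Benjamini-Hochberg adjustment over all genes tested. Intervals are at 95%. CPM uses TMM-adjusted library sizes, and a pseudocount of 1 CPM was used for log2 values within mice or batches. The fit was tested on simulated data. Mouse numbers in the labels pair the 2 slices of 14 mice. Deviations of same-mouse slices had a mean correlation of 0.29, against -0.0782 for different mice. All 9 members are named. Pathway genes were named, in each stimulation and genotype comparison, as the called genes averaging at least 1 CPM with the 3 largest log2 fold changes in each direction. Further genes are named where a count of all 4 comparisons, or a count of 5 or fewer, needed them, and these were chosen after their values were seen. A pathway gene that this rule names is not reported here. Members and lists were chosen with earlier results of these data known. Alternatives were DESeq2 1.42.0, its size factors, no filter, only the groups compared, 1 library of each pair, each mouse left out, a mouse block and a batch term. Leaving out samples high in choroid plexus markers, and the library lowest in Thy1, was added after seeing the data.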

Additional observations from a re-analysis of the deposited data

Results flagged for a closer look

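In groups of 4 or 5 mice, 5 member values stood further from the rest of their group than Dixon's 95% limit allows. Chance gives about 1 such value in 20 groups, and 54 combinations of member and group were examined. Tgfb1 read 37.8 CPM in the stimulated slice of Mouse1551 (T41B, vehicle), where the other 3 mice read 26.3 to 27.3 CPM, and 17.3 CPM in that of Mouse1509 (WT, vehicle), where the others read 12.4 to 13.1 CPM. Choroid plexus markers summed to 298 and 1224 CPM in these 2 samples, while the stimulated slice of Mouse1513, in the group of Mouse1509, had 1003 CPM of these markers and 13.1 CPM of Tgfb1. The part of choroid plexus in the high Tgfb1 was not tested. Tgfb3 read 14.6 CPM in the stimulated slice of Mouse1564 (T41B, BD10-2) against 9.66 to 11.1 CPM in the others. Skil read 146 CPM in the sham slice of Mouse1563 (T41B, BD10-2) against 116 to 119 CPM, and 155 CPM in the sham slice of Mouse1551 (T41B, vehicle) against 117 to 123 CPM.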

How the results depend on the processing

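Of the results for single members, 509 genotype values stayed on their side of the threshold under an alternative, 17 lost a call and 5 gained one. For stimulation these counts were 408, 27 and 6, all 504 treatment values and all 288 and 297 interaction values stayed uncalled. The sign changed in 13 genotype, 10 stimulation, 30 treatment and 15 and 27 interaction values, none of them of a result that was called. Members called in sham slices on vehicle by genotype rose from 3 to 5 with DESeq2 (Smad7 and Skil added), and those called for stimulation in T41B mice on vehicle from 3 to 5 with the mouse as a replicate block (Tgfbi and Skil added). The block changed 1 other member call, Tgfbi in WT mice on vehicle. Members called by genotype in stimulated slices on vehicle fell from 2 to 1 with batch as a term. Leaving out each mouse in turn gave 1 to 2 members for that comparison, 2 to 5 for genotype in sham slices on BD10-2, 3 to 5 for stimulation in T41B mice on BD10-2 and 1 to 2 in WT mice on BD10-2. Over all genes, fitting only the groups compared gave 1581 calls in place of 2397 (stimulation, WT vehicle), 2582 in place of 4197 (T41B vehicle), 537 in place of 1215 (genotype, vehicle sham), 1731 in place of 1062 (BD10-2 sham) and 1240 in place of 2056 (BD10-2 stimulated). The block gave 3906 for stimulation in WT mice on vehicle and 3 for the genotype interaction on vehicle, and batch gave 352 for genotype in vehicle sham slices. Without samples high in choroid plexus markers the counts were 1183 (stimulation, T41B vehicle), 252 and 230 (genotype, vehicle sham and stimulated, the latter in place of 1128). Leaving out mice gave 556 to 2066, 678 to 1166, 484 to 1084 and 1055 to 2442 for genotype (vehicle sham and stimulated, BD10-2 sham and stimulated), and 1238 to 1718, 2648 to 3654 and 758 to 1306 for stimulation in WT vehicle, T41B vehicle and WT BD10-2 mice. For treatment and interactions, counts of 0 became at most 26 and 79. The cause of these shifts was not tested. Batch could not be a term for treatment, since each batch held 1 treatment. Tgfbi, with 29 to 368 counts a sample, had the fewest counts of the 9 members and the largest SE for stimulation.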
